A study of Mus musculus with 50 samples.

Results

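The 40 genes described here encode tubulins, the alpha, beta and gamma subunits from which microtubules are built and nucleated, and proteins that bind, destabilize, sever or track microtubules. The list holds 5 alpha, 7 beta and 2 gamma tubulins, 7 structural microtubule-associated proteins (MAPs), 3 end-binding proteins, 4 stathmins, LIS1 (Pafah1b1) with its partner Ndel1, 4 CLIP and CLASP genes, 2 severing enzymes, 3 dynactin subunits and the tubulin tyrosine ligase Ttl. They were chosen by name because the transgene derives from doublecortin-like kinase, of a family of microtubule-binding proteins. Whether the protein made from the transgene itself binds microtubules is not given in the sources used here. No measured value is part of the rule. By accession or by the symbol in the probe's description, 36 of the 40 had at least 1 of the 51 probes found for them on the Agilent array, among 34539 genes and single probes in all. Map1a, Tuba1c, Clasp1 and Clasp2 had none by this rule.

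Microtubules grow and shrink from the ends of their tubulin polymers, and neurons depend on them for axons, dendrites and transport. Structural MAPs such as Mapt and Map2 bind along the polymer, end-binding proteins ride on growing plus ends, and stathmins sequester free tubulin dimers and favour shrinkage. Dynactin and LIS1 work with the motor dynein, which carries cargo towards the minus end. In the adult hippocampus these genes are expressed at high levels by neurons, and part of them are also used by glia.

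RNA came from both hippocampi of 5 wild-type (WT) male C57/BL6j mice and of 5 transgenic (TG) male mice on that background, which overexpressed DCLK-short, a splice variant of doublecortin-like kinase named δC, as which the kinase is constitutively active. The promoter of the transgene and the ages were not given in the sources used here, and all mice were housed singly without other treatment. Each of 10 two-color Agilent arrays compared a WT mouse with a TG mouse, and each mouse was on 2 arrays, once in Cy3 and once in Cy5. In bulk tissue, fewer cells of a type and less RNA per cell cannot be told apart.

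Values are log2 ratios of TG over WT after loess normalization, and a gene was called at an FDR of 0.1 or less in limma's moderated test over all genes. Signs follow the labels of the arrays, which are in doubt, and run against the direction that the study gives for Agilent. Tmem254a, a gene outside the list, was higher in TG by 1.84 on the log2 scale on ABI, where the 5 WT mice lay between 2.01 and 2.71 above the array median and the 5 TG mice between 3.84 and 4.66, while the Agilent ratio as labelled was -0.99 ± 0.0486 (SE, n = 10 arrays) and negative on every array. Labels were also checked by correlating both channels of a mouse over genes. Each channel entered as its deviation from the mean of the 5 channels of its dye on arrays 1 to 5 or on arrays 6 to 10. The correlation as labelled had a median of 0.196 over the 10 mice, from -0.0841 to 0.628. An exchange of arrays 1 to 5 for arrays 6 to 10 gave a median of 0.264, from 0.00581 to 0.628. That exchange turns every sign below and leaves the calls from log ratios over all 10 arrays as they are. Values per mouse change, since other channels are joined. Calls with the mouse as a block or with a mouse left out, given below, also rest on the labels. They were not repeated after the exchange.

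Of the 36 genes, 34 had a probe well above background in both channels of all 10 arrays, and no member probe was saturated. Arrays 1 and 9 stood apart. They share the mouse TG4 as labelled, and the wild-type mouse WT5 after the exchange. The SD of the log2 ratios over all genes was 0.268 and 0.338 there and 0.131 to 0.216 on the other 8 arrays. Over the 36 microtubule genes it was 0.729 and 0.883, against 0.131 to 0.270. Of these genes 4 exceeded an absolute log2 ratio of 1 on array 1 and 5 on array 9, where 1.23% and 2.4% of all genes did so, and none did on the other arrays. Results below are therefore also given without arrays 1 and 9. The 4 probes of Dclk1, the gene from which the transgene derives, had log2 ratios between -0.06 and -0.08 and FDRs from 0.492 to 0.729, and whether they lie in the part that the transgene carries is not given in the sources used here.

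Of the 36 microtubule genes, 10 were called, where 8.21% of all 34539 genes were. The stathmins Stmn1, Stmn3 and Stmn4, the beta tubulins Tubb2b and Tubb3, the gamma tubulin Tubg1 and the dynactin subunit Dctn3 were higher in TG as labelled (7 genes, background 4.05%). The end-binding genes Mapre1 and Mapre2 and the structural MAP gene Map7 were lower (3 genes, background 4.16%). At an FDR of 0.05, 4 genes were called (Stmn4, Tubb3, Mapre1 and Dctn3, background 3.69%). With only the probes well above background on all 10 arrays, 11 of 34 microtubule genes were called, where 13.1% of 25307 genes were. Folds ran from 1.09-fold for Mapre2 to 1.45-fold for Map7. The median log2 ratio of the 36 genes was 0.063 and that of all genes 0.0034, and 25 of the 36 ratios were above 0. All 10 called genes kept their sign in the mean of the 5 arrays with WT in Cy3 and in the mean of the 5 arrays with WT in Cy5. They were called on these same arrays, so that this is no separate support.

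These calls treat both arrays of a mouse as separate observations, as the study's model does. With 1 value per mouse, 5 against 5, none of the 36 genes was called, and 0.084% of all genes were. At an unadjusted p under 0.05, limma's test on mouse values held 10 of the 36 genes, where 8.21% of all genes passed. With single channels and the mouse as a random block, 5 were called (Tubb3, Mapre1, Stmn1, Stmn4 and Dctn3; background 4.59%). Leaving out a mouse with both of its arrays left between 1 and 9 calls, the 9 without WT6 (background 8.68%). Without TG4, and so without arrays 1 and 9, 5 genes were called (Stmn4, Tubb3, Mapre1, Stmn1 and Map7, background 4.8%). Only Stmn4 was called without WT3, without WT4 or without WT5, where 1.11%, 0.97% and 2.25% of all genes were called.

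**Figure D1:**
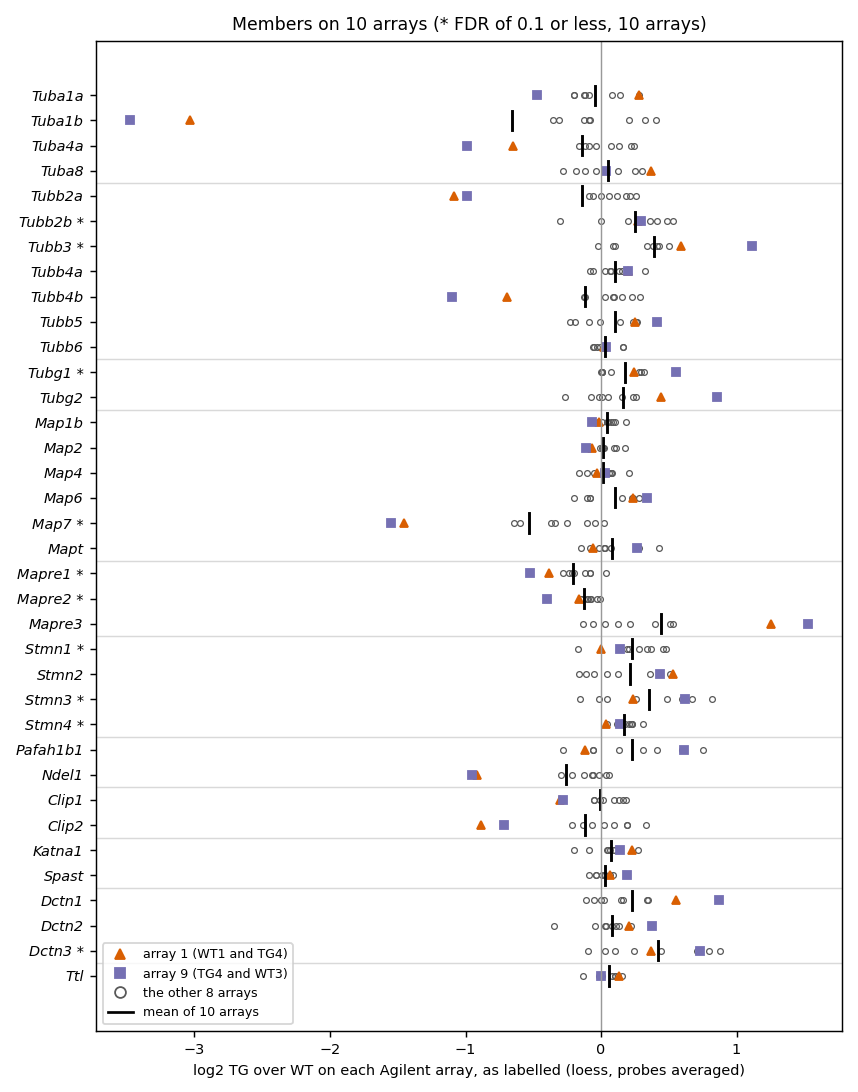
Log2 ratio of TG over WT as labelled (horizontal axis) of the 36 microtubule genes (rows, grouped by role) on each of the 10 Agilent arrays, array 1 as triangles, array 9 as squares, the others as circles, with the mean as a bar and an asterisk at the 10 called genes. Arrays 1 and 9 hold the lowest values of Tuba1b (-3.04 and -3.47) and the highest of Mapre3 (1.26 and 1.53), while most other arrays lie close to 0.

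Of the 4 stathmins 3 were called, all higher as labelled, where 4.05% of all genes were called higher. Stmn4, which encodes the membrane-bound stathmin RB3 of neurons, had log2 ratios from 0.040 to 0.31 with a median of 0.19 over the 10 arrays. All 10 lay above 0, a pattern that 2.29% of all genes showed with either sign and 3 of the 36 microtubule genes. Its mean was 0.17 ± 0.0288 (SE, n = 10 arrays; FDR 0.0156), and it was 0.19 without arrays 1 and 9 (FDR 0.0256). By mouse, its log2 level was 11.14, 11.03, 11.01, 10.98 and 11.05 in WT1, WT3, WT4, WT5 and WT6, and 11.30, 11.32, 11.16, 11.09 and 11.19 in TG1 to TG5. The groups overlapped only through WT1 and TG4.

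Stmn3 encodes SCLIP, another membrane-bound stathmin of neurons. Its array ratios ran from -0.16 to 0.82 with a median of 0.37, and 8 of 10 were above 0. The mean was 0.36 ± 0.0934 (FDR 0.0577), and 0.34 without arrays 1 and 9 (FDR 0.134). Its levels were 11.86, 11.68, 11.68, 11.82 and 11.98 in the WT mice and 12.17, 12.03, 12.16, 12.25 and 12.20 in the TG mice, so that the lowest TG mouse lay above the highest WT mouse. With 1 value per mouse it had the smallest p of the 36 genes, 0.000241 by limma, and an FDR of 0.129. After the exchange of arrays the groups overlapped for this gene and its FDR was 0.329.

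Stmn1 encodes stathmin itself, which is expressed in dividing and immature cells as well as in neurons. Its array ratios ran from -0.17 to 0.48 with a median of 0.24. The mean was 0.23 ± 0.0584 (FDR 0.0537), and 0.27 without arrays 1 and 9 (FDR 0.0640). Levels were 11.46, 11.39, 11.49, 11.26 and 11.51 in the WT mice and 11.73, 11.63, 11.73, 11.53 and 11.64 in the TG mice, again without overlap, which also held after the exchange. Of its 2 probes, that nearer the 3' end had 0.26 (FDR 0.0359) and the other, 2837 bases away, 0.20 (FDR 0.191). Mice of the groups were apart for 3 of the 36 genes as labelled (Stmn1, Stmn3 and Tubb3), where 2.12% of all genes were. After the exchange this was so for Stmn1 and Tubb3, with 1.57% of all genes.

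Stmn2, the gene of the axonal stathmin SCG10, had a mean of 0.21 ± 0.0771 and an FDR of 0.150. Its ratios differed with dye, with 0.38 ± 0.197 (SD, n = 5) on the arrays with WT in Cy3 and 0.047 ± 0.242 on the others. With a dye term in the model its FDR was 0.0841.

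**Figure D2:**
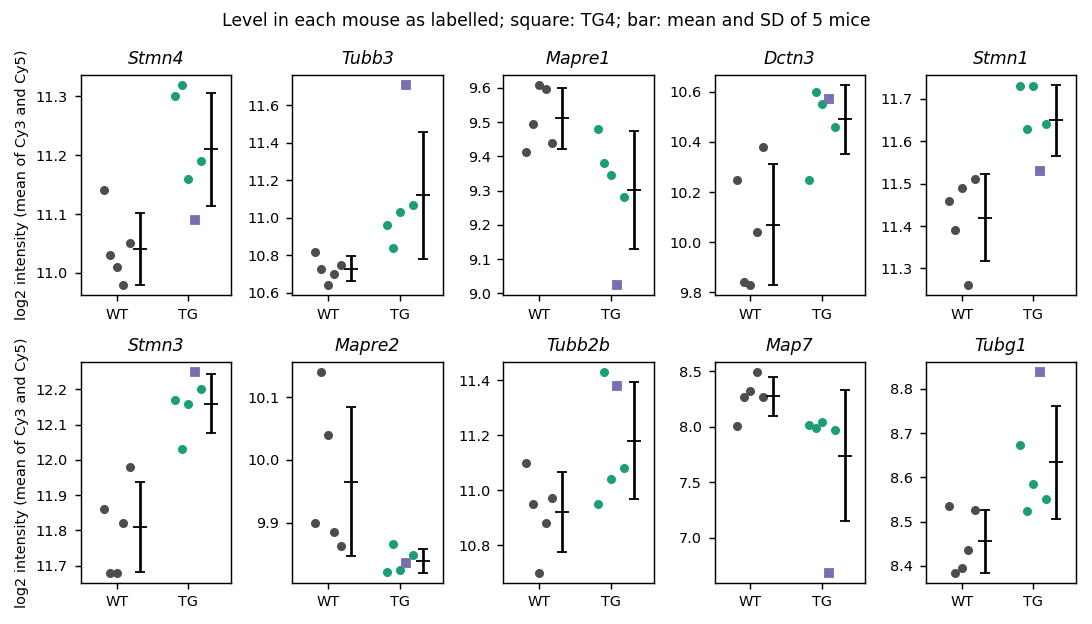
Log2 intensity (vertical axis, mean of the Cy3 and Cy5 channel of a mouse) of the 10 called genes in 5 WT and 5 TG mice as labelled, each point a mouse, with mean and SD. The groups do not overlap for Stmn1, Stmn3 and Tubb3, and TG4 (square) is the farthest TG mouse for Tubb3 (11.71), Map7 (6.685) and Tubg1 (8.84).

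Of the 7 beta tubulins 2 were called, both higher as labelled, where 4.05% of all genes were called higher. Tubb3 encodes the beta tubulin that is characteristic of neurons. Its array ratios ran from -0.025 to 1.11 with a median of 0.40, and 9 of 10 were above 0. The mean was 0.39 ± 0.0907 (FDR 0.0421), and 0.28 without arrays 1 and 9 (FDR 0.0524). Its levels were 10.82, 10.73, 10.64, 10.70 and 10.75 in the WT mice and 10.96, 10.84, 11.03, 11.71 and 11.07 in the TG mice. TG4 lay far above the 4 other TG mice, and each TG mouse exceeded each WT mouse.

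Tubb2b, a beta tubulin of developing and adult neurons, had array ratios from -0.30 to 0.53 with a median of 0.29. The mean was 0.25 ± 0.0702 (FDR 0.0675), and it stayed at 0.25 without arrays 1 and 9, where the FDR was 0.160. Its levels were 10.70 to 11.10 in the WT mice and 10.95 to 11.43 in the TG mice, which overlap.

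The other 5 beta tubulins were not called, with means from -0.14 (Tubb2a) to 0.10 (Tubb4a and Tubb5). Tubb4a, of oligodendrocytes and neurons, had 0.10 ± 0.0382 (FDR 0.154), and the ubiquitous Tubb5 had 0.10 ± 0.0632 (FDR 0.429). Tubb4b, another widely expressed isotype, had -0.12 ± 0.124 (FDR 0.727), with -0.70 on array 1, -1.10 on array 9 and -0.13 to 0.29 on the other 8 arrays. Tubb6 was dim, with a flag for signal well above background on 7 of 10 arrays, and had 0.029 ± 0.0268.

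The neurons' major alpha tubulin gene, Tuba1a, had a mean of -0.042 ± 0.0680 (FDR 0.845), and Tuba8 had 0.050 ± 0.0617. None of the 4 measured alpha tubulins was called. Tuba1b, the widely expressed isotype, had -0.65 ± 0.389 (FDR 0.418), the lowest mean of the 36 genes, from -3.04 on array 1, -3.47 on array 9 and -0.35 to 0.41 on the others. Without these arrays its mean was -0.0037. Its only probe also lists accessions of Tuba1a and Tuba1c, so that its signal cannot be assigned to 1 gene. A probe described in words as the former alpha 6 tubulin, now Tuba1c, had -0.037 (FDR 0.742).

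Tubg1, the gamma tubulin that nucleates microtubules at centrosomes, was above 0 on all 10 arrays, from 0.00096 to 0.55 with a median of 0.16. Its mean was 0.18 ± 0.0545 (FDR 0.0916) and 0.12 without arrays 1 and 9 (FDR 0.216). The 5 arrays with WT in Cy3 gave 0.067 ± 0.104 (SD) and the 5 others 0.29 ± 0.192. Tubg2, the isotype that is more restricted to brain, had 0.16 ± 0.0888 (FDR 0.360) and its highest value, 0.86, on array 9.

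Dctn3 encodes the p24 subunit of dynactin, in the shoulder of the complex. Its array ratios ran from -0.094 to 0.88 with a median of 0.41, and 9 of 10 were above 0. The mean was 0.42 ± 0.0979 (FDR 0.0429), the largest of the genes called higher, and 0.39 without arrays 1 and 9 (FDR 0.106). Levels were 10.25, 9.84, 9.83, 10.04 and 10.38 in the WT mice and 10.25, 10.60, 10.55, 10.57 and 10.46 in the TG mice, where TG1 lay among the WT mice. Dctn1, the large p150 subunit that binds microtubules, had 0.23 ± 0.0866 (FDR 0.168), with 0.87 on array 9 and 0.11 without arrays 1 and 9. Dctn2, the p50 subunit dynamitin, had 0.081 ± 0.0553 (FDR 0.505).

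Of the 3 end-binding genes 2 were called, both lower in TG as labelled, where 4.16% of all genes were called lower. Mapre1, the gene of EB1, had array ratios from -0.53 to 0.039 with a median of -0.21, and 9 of 10 were below 0. The mean was -0.21 ± 0.0481 (FDR 0.0421), and -0.15 without arrays 1 and 9 (FDR 0.0769). Its levels were 9.41, 9.49, 9.61, 9.60 and 9.44 in the WT mice and 9.48, 9.38, 9.35, 9.02 and 9.28 in the TG mice, where TG1 lay within the range of the WT mice. Its 3' probe had -0.19 (FDR 0.0213) and its other probe -0.22 (FDR 0.152).

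Mapre2, the gene of EB2, was below 0 on all 10 arrays, from -0.40 to -0.0082 with a median of -0.10. The mean was -0.13 ± 0.0344 (FDR 0.0667), and -0.087 without arrays 1 and 9 (FDR 0.116). Its levels were 9.90, 10.14, 10.04, 9.89 and 9.86 in the WT mice and 9.82, 9.87, 9.82, 9.84 and 9.85 in the TG mice, where only TG2 reached the lowest WT mouse. Its 2 probes differed, with -0.22 (FDR 0.163) and -0.029 (FDR 0.839), and neither was called alone. Mapre3, the gene of the neuronal EB3, had the highest mean of the 36 genes, 0.44 ± 0.155, and was not called (FDR 0.136). Arrays 1 and 9 gave 1.26 and 1.53 and the others -0.14 to 0.53, and its mean without them was 0.20.

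Upstream sequences are shown for 4 called genes that were called under at least 19 of 34 alternatives and are in the promoter table, so that the start sites of genes that moved either way can be compared. The table of RefSeq promoters (build GRCm38.p6) held 5 of the 10 called genes. The stretches are the 250 bases before the annotated start, 5' to 3' on the gene's strand: Tubb3 on chr8:123411303-123411552 (+), Dctn3 on chr4:41723164-41723413 (-), Stmn3 on chr2:181314501-181314750 (-) and Mapre1 on chr2:153741037-153741286 (+). Capitals mark exact matches, on either strand, to the Sp1 box GGGCGG, the box CCAAT, the box TATAAA or the cAMP response element TGACGTCA.
Tubb3: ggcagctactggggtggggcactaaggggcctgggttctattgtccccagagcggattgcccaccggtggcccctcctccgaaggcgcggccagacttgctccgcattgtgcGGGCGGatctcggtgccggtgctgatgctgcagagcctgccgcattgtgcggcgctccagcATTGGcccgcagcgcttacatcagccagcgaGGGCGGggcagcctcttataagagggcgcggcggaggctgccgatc
Dctn3: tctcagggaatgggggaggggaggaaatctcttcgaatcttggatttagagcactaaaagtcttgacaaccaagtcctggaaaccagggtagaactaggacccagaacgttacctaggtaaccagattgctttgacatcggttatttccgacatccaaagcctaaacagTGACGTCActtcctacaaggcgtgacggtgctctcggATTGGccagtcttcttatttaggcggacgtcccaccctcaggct
Stmn3: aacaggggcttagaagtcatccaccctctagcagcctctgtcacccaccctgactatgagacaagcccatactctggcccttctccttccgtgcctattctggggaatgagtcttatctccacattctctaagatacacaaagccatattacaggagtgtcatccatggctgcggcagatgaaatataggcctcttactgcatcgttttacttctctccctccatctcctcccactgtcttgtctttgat
Mapre1: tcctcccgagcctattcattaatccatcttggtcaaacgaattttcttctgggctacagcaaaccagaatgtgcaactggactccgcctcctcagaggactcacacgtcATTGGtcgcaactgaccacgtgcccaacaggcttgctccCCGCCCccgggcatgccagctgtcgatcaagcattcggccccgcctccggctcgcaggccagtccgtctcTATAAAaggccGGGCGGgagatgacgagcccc

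Tubb3, the neuronal beta tubulin gene, holds 2 GGGCGG and 1 CCAAT on the opposite strand, and Dctn3 holds TGACGTCA 81 to 74 bases before the start and CCAAT on the opposite strand. Mapre1 holds TATAAA 32 to 27 bases before the start, 2 GGGCGG, 1 of them on the opposite strand, and 1 CCAAT on the opposite strand, while Stmn3 holds none of the 4 motifs. Of all 32851 promoters of this length, 32.7% hold GGGCGG, 33.8% CCAAT, 12.4% TATAAA and 1.55% TGACGTCA. The shares of G and C were 68% for Tubb3, 59.2% for Mapre1, 49.6% for Dctn3 and 48.8% for Stmn3, beside a median of 52.4% over all promoters. None of the 4 motifs is shared by all 3 of the genes called higher.

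Of the 6 measured structural MAP genes only Map7 was called, as lower, where 4.16% of all genes were called lower. Map7 encodes ensconsin, which stabilizes microtubules and recruits kinesin. Its array ratios ran from -1.55 to 0.019 with a median of -0.36, and 9 of 10 were below 0. The mean was -0.53 ± 0.155 (FDR 0.0800), and -0.29 without arrays 1 and 9, where it was still called (FDR 0.0795). Its levels were 8.01 to 8.49 in the WT mice, 7.97 to 8.04 in 4 TG mice and 6.685 in TG4. Both probes of the rule were called, with -0.52 and -0.55. Of 2 further probes described in words as Map7, 1 had -0.20 (FDR 0.0554) with -0.0029 and -0.089 on arrays 1 and 9, and the other, dim, had -0.015 (FDR 0.857).

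The axonal MAP gene Mapt had 0.080 ± 0.0536 (FDR 0.492), and the dendritic MAP gene Map2 had 0.016 ± 0.0302 (FDR 0.868). Map1b, expressed in growing axons, had 0.045 ± 0.0258, and the more widely expressed Map4 had 0.018 ± 0.0336. The probes of Map2 and Map1b had low mean log2 intensities, 6.655 and 6.392, beside 6.024 for the dim Tubb6. Further probes described in words as Map2 had 0.040 (FDR 0.661) at a bright 12.12 and 0.010 (FDR 0.975) at 6.863. Map6, whose product stabilizes microtubules against cold, had 0.10 ± 0.0566 (FDR 0.383), while a probe described in words as Map6 had 0.16 (FDR 0.0472). The 3 probes described as Map1a had log2 ratios from -0.050 to 0.032 and FDRs of 0.570 or more. Over all 15 probes that only the words of the description tie to a gene of the list, 2 were called, where 7.42% of all probes were.

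Pafah1b1, the gene of LIS1, had 0.23 ± 0.101 (FDR 0.239), with array values from -0.28 to 0.75. Ndel1, whose product links LIS1 to dynein, had -0.26 ± 0.105 (FDR 0.206) and -0.086 without arrays 1 and 9. Clip1, of plus ends, had -0.0099 ± 0.0501, from probes of opposite sign, -0.19 (FDR 0.106) and 0.17 (FDR 0.154). Clip2, enriched in brain, had -0.12 ± 0.112, and Clasp2, by a probe described in words, 0.048 (FDR 0.889). The severing enzymes Katna1 (katanin) and Spast (spastin) had 0.071 ± 0.0416 and 0.031 ± 0.0272, and Ttl, which adds the terminal tyrosine back to alpha tubulin, had 0.055 ± 0.0293. None of the genes in this paragraph was called.

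Probes at least 200 bases apart were found for 9 microtubule genes. For 3 of the 9 the probe nearest the 3' end exceeded that nearest the 5' end by at least 0.99 on arrays 1 and 9. Tubb2a, a major brain beta tubulin, had the largest differences. Its probe nearest the 3' end had 0.2545 and 0.215 on arrays 1 and 9, while its probe 1251 bases further towards the 5' end had -3.87 and -3.795. On the 8 other arrays the probes differed by between -0.42 and 0.18. Tuba4a, an alpha tubulin of brain and muscle, behaved alike, with 0.35 and 0.28 at the 3' probe and -2.355 and -2.82 at the probe 1228 bases away.

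For Ndel1 the 3' probe exceeded the other by 1.77 on array 1 and by 0.99 on array 9. The other 6 of the 9 genes showed differences from -0.84 (Mapre2, array 9) to 0.48 (Mapre1, array 1) on these arrays. For Mapre1, which was called as lower, the 3' probe had -0.14 and -0.32 on arrays 1 and 9. Its other probe had -0.62 and -0.73 there. Tuba1b, Mapre3, Tubb3, Dctn1 and Map7, which also had large values there, have no such pair of probes and could not be compared in this way. Over all 4822 genes with such probes, the 3' probe exceeded the 5' probe by more than 1 in 8.11% on array 1 and in 9.54% on array 9, and in at most 0.166% on the other 8 arrays. With the 3' probe alone Tubb2a had 0.11 in place of -0.14 and was called (FDR 0.071), and Ndel1 was called as lower, with -0.19 (FDR 0.0851). The cause of this pattern was not tested.

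**Figure D3:**
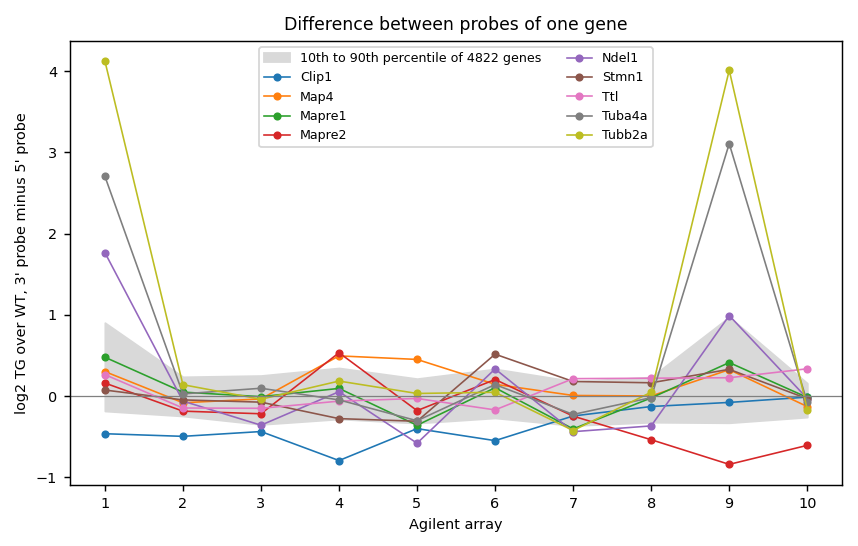
Difference in log2 TG over WT (vertical axis) between the probe nearest the 3' end and that nearest the 5' end of a gene on each Agilent array (horizontal axis), for the 9 microtubule genes with probes at least 200 bases apart, over the 10th to 90th percentile of 4822 genes in grey. Tubb2a (4.125 and 4.01), Tuba4a (2.705 and 3.11) and Ndel1 (1.77 and 0.99) reach their highest values on arrays 1 and 9.

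Lists of other microtubule genes gave 8 calls among 56 measured genes, 7 higher and 1 lower as labelled, where 8.21% of all genes were called, 4.05% higher and 4.16% lower, and their median log2 ratio was 0.0050. Tubulin folding genes had 3 calls among 7, all higher (4.05% of all genes), while Tbce, another cofactor, had -0.25 ± 0.0912 (FDR 0.153) and was below 0 on 8 of 10 arrays. They were Arl2, the small GTPase of the tubulin cofactors, with 0.26 ± 0.0480 (FDR 0.0197), Tbcb, a cofactor of alpha tubulin, with 0.29 ± 0.0681 (FDR 0.0446), and Tbca, a cofactor of beta tubulin, with 0.48 ± 0.137 (FDR 0.0774). Arl2 and Tbcb were above 0 on all 10 arrays and remained called without arrays 1 and 9 (FDR 0.0463 and 0.0951), and Tbca was not (FDR 0.142).

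Dctn6, another dynactin subunit, was higher with 0.19 ± 0.0494 (FDR 0.0611), as the only 1 of 6 further dynactin genes. Nudc, a chaperone partner of LIS1, had 0.13 ± 0.0308 (FDR 0.0416), and Nde1, the relative of Ndel1, had -0.098 ± 0.0284 (FDR 0.0781). The MAP light chain gene Map1lc3a, of a form of the autophagy marker LC3, had 0.45 ± 0.1004 (FDR 0.0380). Map1lc3b, of another form, had -0.17 ± 0.0910 (FDR 0.347) and was not called. Cdk5r1, which encodes the p35 activator of the kinase Cdk5, had 0.19 ± 0.0524 (FDR 0.0724). Without arrays 1 and 9 Nudc, Nde1 and Map1lc3a were still called, and Dctn6 (FDR 0.150) and Cdk5r1 (FDR 0.190) were not. Among 12 tubulin modifying enzymes, 5 severing relatives and 5 genes of the gamma tubulin complex, none was called, and the lowest FDRs of these lists were 0.116 (Svbp), 0.315 and 0.400. Without arrays 1 and 9, Tubgcp3 of the gamma tubulin complex was called, as lower (FDR 0.0996).

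Markers of cell types gave 5 calls among 51 genes, beside 8.21% of all genes. All 6 markers of hippocampal fields and all 8 of neurons were well above background on every array, and none of them was called on all 10 arrays. Without arrays 1 and 9 the neurofilament gene Nefm was called (FDR 0.0687), with 0.25 on all 10 arrays and 9 of them above 0. Rbfox3 (0.27), Syn1 (0.10) and Camk2a (0.074) also had means above 0. Snap25 (-0.40), Slc17a7 (-0.35), Syt1 (-0.052) and Nefl (-0.0088) had means below 0. On arrays 1 and 9 Slc17a7 had -2.02 and -1.75 and Snap25 -1.34 and -1.49, while Rbfox3 had 0.60 and 0.845. The mean log2 level of the neuron markers, centred over mice, was -0.062 to 0.061 in WT, -0.37 in TG4 and -0.042 to 0.16 in the 4 other TG mice. Astrocyte markers had 2 calls among 7, Aldh1l1 with 0.23 (FDR 0.0247) and Aqp4 with 0.30 (FDR 0.0672). Both were still called without arrays 1 and 9 (FDR 0.0584 and 0.0348). Gfap (-0.15, FDR 0.128), Gja1 (-0.079) and Aldoc (-0.056) had ratios below 0 and were not called. The mean level of the 7 markers lay between -0.071 and -0.0094 in WT and between 0.0022 and 0.092 in TG. Levels of marker lists per mouse follow the labels, which are in doubt, and were not computed after the exchange of arrays. The myelin gene Mbp was lower with -0.51 (FDR 0.0838), 1 of 8 oligodendrocyte markers, at -1.42 on array 1 and -1.53 on array 9. It was below 0 on all 10 arrays and still called without arrays 1 and 9 (FDR 0.051). Among the others, none of which was called, Mog had -0.34, Ugt8a -0.16 and Mag -0.12, while Cnp had 0.24, Cldn11 0.17 and Mobp 0.041. The mean level of the 8 markers was 0.00014 to 0.22 in WT, -0.46 in TG4 and -0.13 to 0.11 in the 4 other TG mice. The immature neuron marker Igfbpl1 was higher with 0.14 (FDR 0.0470) and still called without arrays 1 and 9 (FDR 0.092), while Dcx had 0.021 (FDR 0.781). Calb2, of the same list, was not called on all 10 arrays (0.18, FDR 0.231) and was without arrays 1 and 9 (FDR 0.0512). Itgam, the only microglial marker of 7 that was not well above background on all arrays, was lower with -0.15 (FDR 0.0879), and not called without arrays 1 and 9 (FDR 0.218), while Aif1 had 0.28 (FDR 0.109) and Tyrobp 0.26 (FDR 0.344). The part of these markers in the values of the microtubule genes was not tested.

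The number of calls moved with the way the ratios were centred. With median centring in place of loess 6 of the 36 genes were called (background 3.36%), all higher as labelled (Tubb2b, Tubb3, Tubg1, Stmn3, Pafah1b1 and Dctn3). Of the calls over all genes 90.9% were then higher, against 49.3% with loess. Mapre1, Mapre2 and Map7 kept their sign under this centring and were not called, with -0.12, -0.022 and -0.48. No called gene changed its sign under any of the 34 alternatives, all of which refit the arrays that gave the calls.

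**Figure D4:**
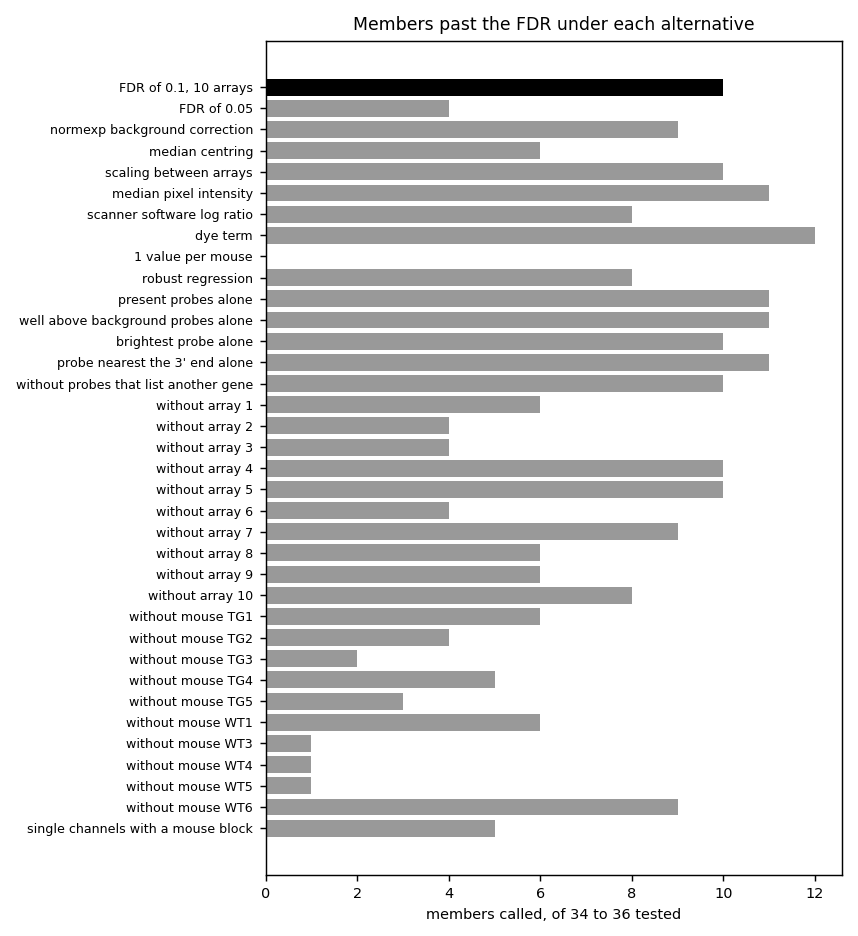
Number of microtubule genes called (horizontal axis) under each processing alternative and with each array or mouse left out (rows), with the black bar for all 10 arrays at an FDR of 0.1. The count is 10 on all arrays, 0 with 1 value per mouse, and 1 without WT3, WT4 or WT5.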

How the data were processed

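Hippocampal RNA of 5 WT and 5 TG mice was measured on each of 5 platforms, and the Agilent arrays are used here. The numbers of the WT mice in the sample titles differ between platforms. The ABI titles name a WT mouse that no Agilent title names, and the reverse also holds. As deposited by the authors, each Agilent file holds spot intensity in Cy3 and Cy5, before normalization, and a log10 ratio normalized by the scanner software. Deposited ABI intensity values served only the check of labels, since 0 of the ABI probes could be named as a microtubule gene. From the Illumina table, 80 per-sample columns could not be tied to a sample and were not used, and the other platforms were not analysed here.

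Mean spot intensities were loess-normalized without background correction, as in the study's methods (limma 3.58.1 in R 4.3.3). Spots of a probe and then probes of a gene were averaged. Of 41174 probes, 22207 were named by accession and 1255 by description, and 17712 kept their identifier. The log2 ratio was tested against 0 over all 34539 genes and single probes with limma's moderated test and Benjamini-Hochberg adjustment, at an FDR of 0.1. SE is the moderated SE. Levels per mouse average the Cy3 and Cy5 log2 intensity of a mouse. Nothing states how RNA was split over both arrays of a mouse, so p-values over arrays may measure technical spread. Each array was a slide of its own, so that slide could not be tested as a batch. Motifs were searched on both strands of 250 bases before the start.

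All 40 genes are accounted for, those called with full values and the others by counts, ranges and values that describe a group, and up to 3 genes with the smallest p for each further list. Genes and lists were chosen with earlier results of these data known. Alternatives were background correction, centring, scaling, pixel statistic, scanner ratio, dye term, 1 value per mouse, mouse block (statmod 1.5.0), robust regression, probe filters and choices, and each array or mouse left out. The code was tested on simulated data. Precision is limited by the number of arrays.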

Additional observations from a re-analysis of the deposited data

Results flagged for a closer look

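A sample was singled out where its gap to the nearest other sample, as a share of the group's range, passed Dixon's 95% limit. Chance singles out about 1 in 20 groups. Over the 10 arrays this was so for 1 of 36 genes, Mapre2, with -0.40 on array 9. The rule cannot single out an array where arrays 1 and 9 deviate together, as for Tuba1b (-3.04 and -3.47). Over mice a sample was singled out in 14 of 72 tests. Of these, 11 were the mouse TG4 as labelled, which is on arrays 1 and 9. After the exchange of arrays described above, the same values are those of a wild-type mouse, WT5.

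The log2 level of TG4 lay below the other TG mice for Tuba1b (8.931), Tuba4a (11.31), Tubb2a (11.35), Tubb4b (9.62), Map7 (6.685), Ndel1 (7.938) and Clip2 (5.783). It lay above them for Tubb3 (11.71), Tubg2 (8.172), Mapre3 (9.868) and Dctn1 (10.88). The 3 further values were Tubb4a in TG2 (9.685), Stmn2 in WT5 (11.46) and Ttl in TG1 (7.049). The cause was not tested.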

How the results depend on the processing

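Of the 36 microtubule genes 10 were called, and 4 at an FDR of 0.05, 6 with median centring, 0 with 1 value per mouse and 5 with a mouse block. Of all genes 8.21%, 3.69%, 3.36%, 0.084% and 4.59% were called, in the same order. Leaving out 1 array or mouse gave 1 to 10 calls. Without an array there were 4 (array 2, 3 or 6), 6 (1, 8 or 9) or 8 to 10. Without a mouse there were 1 (WT3, WT4 or WT5), 2 (TG3), 3 (TG5), 4 (TG2), 5 (TG4), 6 (TG1 or WT1) or 9 (WT6). The other 11 alternatives gave 8 to 12 calls. Over all genes 0.97% to 9.15% were called with 1 array or mouse left out and 6.18% to 13.1% under these 11.

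Of the 56 other microtubule genes 8 were called, and 4 at an FDR of 0.05, 5 with median centring, 5 with the scanner ratio, 0 with 1 value per mouse and 4 with a mouse block. Of all genes 8.21%, 3.69%, 3.36%, 6.18%, 0.084% and 4.59% were called, in the same order. Leaving out 1 array or mouse gave 0 (without WT3 or WT4) to 10 calls, where 0.97% to 9.15% of all genes were called.

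No called gene changed sign under these refits of the same arrays. Among uncalled genes, median centring turned Tuba1a (0.14), Tuba4a (0.0049), Tubb2a (0.00757), Tubb6 (-0.055) and Clip1 (0.062). Robust regression turned Tubb2a (0.017), Tubb4b (0.00942) and Clip1 (0.0040), and the median pixel intensity turned Clip1 (0.0040). The scanner ratio turned Map4 (-0.014). The brightest probe turned Tuba4a (0.079), Tubb2a (0.153) and Clip1 (0.17). The probe nearest the 3' end, an alternative chosen after seeing the data, turned Tuba4a (0.079) and Tubb2a (0.11). Leaving out 1 array or mouse gave -0.097 to 0.00596 for Tuba1a, -0.23 to 0.033 for Tuba4a, -0.21 to 0.086 for Tubb2a, -0.20 to 0.079 for Tubb4b, -0.0017 to 0.042 for Map2, -0.014 to 0.041 for Map4, -0.053 to 0.060 for Clip1 and -0.21 to 0.051 for Clip2. The cause was not tested. Fewer arrays entered only where an array or mouse was left out, and fewer probes only where a single probe was chosen.

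A block for the replicate number was planned on ABI. No paired analysis was possible because no microtubule gene had a named ABI probe, and the other planned ABI alternatives gave no value for the same reason. On Agilent the ratios tested are already paired within each array, a WT with a TG mouse, so no further block for the replicate number was fitted.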
